A study of Mus musculus with 16 samples.

Results

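The growth hormone, STAT5 and IGF1 axis was read from 10 genes: the receptor Ghr, the transcription factors Stat5a and Stat5b, the feedback inhibitors Socs2 and Cish, the transcriptional repressors Bcl6 and Cux2, and the circulating outputs Igf1, Igfals and Igfbp2. A gene was taken where a probe set (the group of array probes read as 1 value) was paired with its symbol and no other. All 10 were measured, by 11 probe sets of 21780 with 1 symbol. They are 10 of the 19935 genes tested.

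Liver RNA of male mice was hybridised to Affymetrix whole-transcript arrays, 1 array per mouse and 16 in all. The design crossed genotype with feeding, to ask how the nuclear receptor PPARβ/δ (gene Ppard) bears on the liver in the fed and the fasted state. The 4 wild-type fed, 5 wild-type fasted, 4 PPARβ/δ knockout fed and 3 PPARβ/δ knockout fasted mice all had a mixed Sv129/C57Bl/6 background. Fasted mice had gone without food for 24 h, and neither labels nor series text give the mice's age. The labels name no cell type for the deletion. Values are log2 of the normalised intensity, and in whole liver fewer cells of a type and less RNA per cell cannot be told apart.

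Pituitary growth hormone binds its receptor on hepatocytes, which activates the kinase JAK2 and then STAT5A and STAT5B. Phosphorylated STAT5 enters the nucleus and induces Igf1, Igfals, Socs2 and Cish, and the last pair of products dampens the receptor's signal. In rodents males secrete the hormone in pulses and females more evenly, which gives many liver genes a sex bias. Bcl6 (male-biased) and Cux2 (female-biased) are repressors of this network, and fasting is known to make the liver less responsive to growth hormone.

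The members' promoter windows are shown because the STAT5 dimer binds a short palindrome, TTCNNNGAA, which reads the same on both strands. RefSeq windows of the GRCm38.p6 build, each from 250 bases before to 50 after an annotated start, were present for 9 of the 10 members (17 windows). The palindrome was found in 5 of these windows, in Cish, Bcl6 and Igfals, or 29.4% of the members' windows against 8.3% of all 32851 windows. Counted by gene, since 1 gene can have several windows, 3 of the 9 members held it, against 9.55% of 27025 genes. More than 1 copy was rare, at 0.457% of all windows, and was found in the Cish window and in a Bcl6 window. The stretches around the matches read as follows, 5′ to 3′ on the gene's strand, with each match in capitals.

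Cish, chr9:107296634-107296688, + strand: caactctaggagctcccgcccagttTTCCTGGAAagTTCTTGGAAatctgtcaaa

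Bcl6, upstream start, chr16:23988937-23988995, - strand: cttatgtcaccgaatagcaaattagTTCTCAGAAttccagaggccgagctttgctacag

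Bcl6, downstream start, chr16:23981338-23981476, - strand: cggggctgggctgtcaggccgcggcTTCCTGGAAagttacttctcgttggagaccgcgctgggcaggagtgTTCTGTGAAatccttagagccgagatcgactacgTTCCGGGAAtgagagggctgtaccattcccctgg

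Igfals, upstream start, chr17:24877594-24877641, + strand: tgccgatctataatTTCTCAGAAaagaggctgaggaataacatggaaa

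Igfals, second start, chr17:24878148-24878206, + strand: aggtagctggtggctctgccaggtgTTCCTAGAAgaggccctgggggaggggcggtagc

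In Cish the copies began at positions 1 and 12, counted from the annotated start. In the downstream Bcl6 window, 3 copies began at positions -168, -122 and -88. The match in the second Igfals window, at -58, also had the BCL6-like form TTCNTAGAA, a subset of the STAT5 palindrome searched on both strands and held by 1.07% of all windows. The HNF6 and CUX2 core ATCAAT, searched on both strands, was in no member's window and in 7.54% of all windows. A match is a description of letters and says nothing of binding in these livers.

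Several arrays stood apart in ways that touch the members. Of 10 skeletal muscle markers, all measured, the score (mean centred log2 value) was 3.91 in wild-type fed mouse 4, 2.66 in knockout fasted mouse 1 and 1.85 in wild-type fed mouse 2, and -0.45 or lower in the other 13 mice. The summed log2 level of these markers spanned 30.51 to 77.10 in wild-type fed, 31.03 to 33.46 in wild-type fasted, 29.55 to 32.68 in knockout fed and 31.10 to 64.54 in knockout fasted mice. Of 8 exocrine pancreas markers 7 were measured, with Prss2, Cpb1 and Cel near background, and their score was 2.39 in wild-type fasted mouse 5 and 0.27 or lower elsewhere. The acute phase score was 1.72 in knockout fed mouse 4, 0.96 in knockout fed mouse 1 and 0.45 in knockout fed mouse 3, and 0.14 or lower elsewhere. The mean score of 6 hepatocyte markers was steady, between -0.10 and 0.08 in the 16 mice. On fasting in wild-type mice, 2 of the 6 single markers had an unadjusted p under 0.05 in limma. So did 4496 of all 19935 genes. None of the 6 passed after adjustment with all mice, and Tat passed without the 3 mice with muscle markers. The targeted gene Ppard had group means of 5.10 ± 0.36 (SD, n = 4) in wild-type fed and 4.71 ± 0.28 (SD, n = 4) in knockout fed mice, with overlapping ranges and an adjusted p of 0.266 in limma. Which part of Ppard was deleted and where its probes lie is unknown here, so this level checks nothing.

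Fasting changed 4 of the 10 genes in wild-type mice: the receptor Ghr and Stat5b fell, and Cux2 and Igfbp2 rose. Among all genes 9.22% passed the same test (adjusted p under 0.05 in limma). Cux2 and Igfbp2 also rose in knockout mice, 2 of 10 members against 3.67% of all genes. Averaged over the genotypes, Cux2 and Igfbp2 rose, and Ghr and Stat5a fell, 4 of 10 members against 10.9% of all genes. All 10 members were among the 11961 genes that were not dim (mean of log2 2.79 or more). With the dim genes left out, the same members passed. The shares of the genes kept were then higher, at 16.2% in wild-type mice, 6.86% in knockout mice and 19% averaged over the genotypes. The members' median log2 difference was -0.21 in wild-type and 0.04 in knockout mice, against 0.02 and -0.02 over all genes. Igf1 did not pass in any fasting comparison.

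The counts were taken again without the arrays with muscle markers. Without those 3 mice, an alternative chosen after seeing the data that leaves 2 wild-type fed and 2 knockout fasted mice, no member passed in wild-type mice (0 of 10, with 4 at an unadjusted p under 0.05), and 4.81% of all genes did. None passed in knockout mice either (0 of 10, with 3 at an unadjusted p under 0.05), against 1.72% of all genes. The 4 wild-type values were then -0.50 for Ghr, -0.52 for Stat5b, 0.51 for Cux2 and 0.65 for Igfbp2, with adjusted p between 0.0789 and 0.128, near the -0.45, -0.49, 0.57 and 0.76 of all 16 mice. All 4 calls were kept when wild-type fed mouse 2 alone or wild-type fed mouse 4 alone was left out. The knockout count was also 0 without knockout fed mice 1 and 4, where 3 members had an unadjusted p under 0.05 and 1.09% of all genes passed. Averaged over the genotypes, Cux2 and Igfbp2 passed under all 25 alternatives. With all 16 mice, 5 members in wild-type and 3 in knockout mice had an unadjusted p under 0.05 in limma. Among all 19935 genes 4496 and 3045 did.

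**Figure D1:**
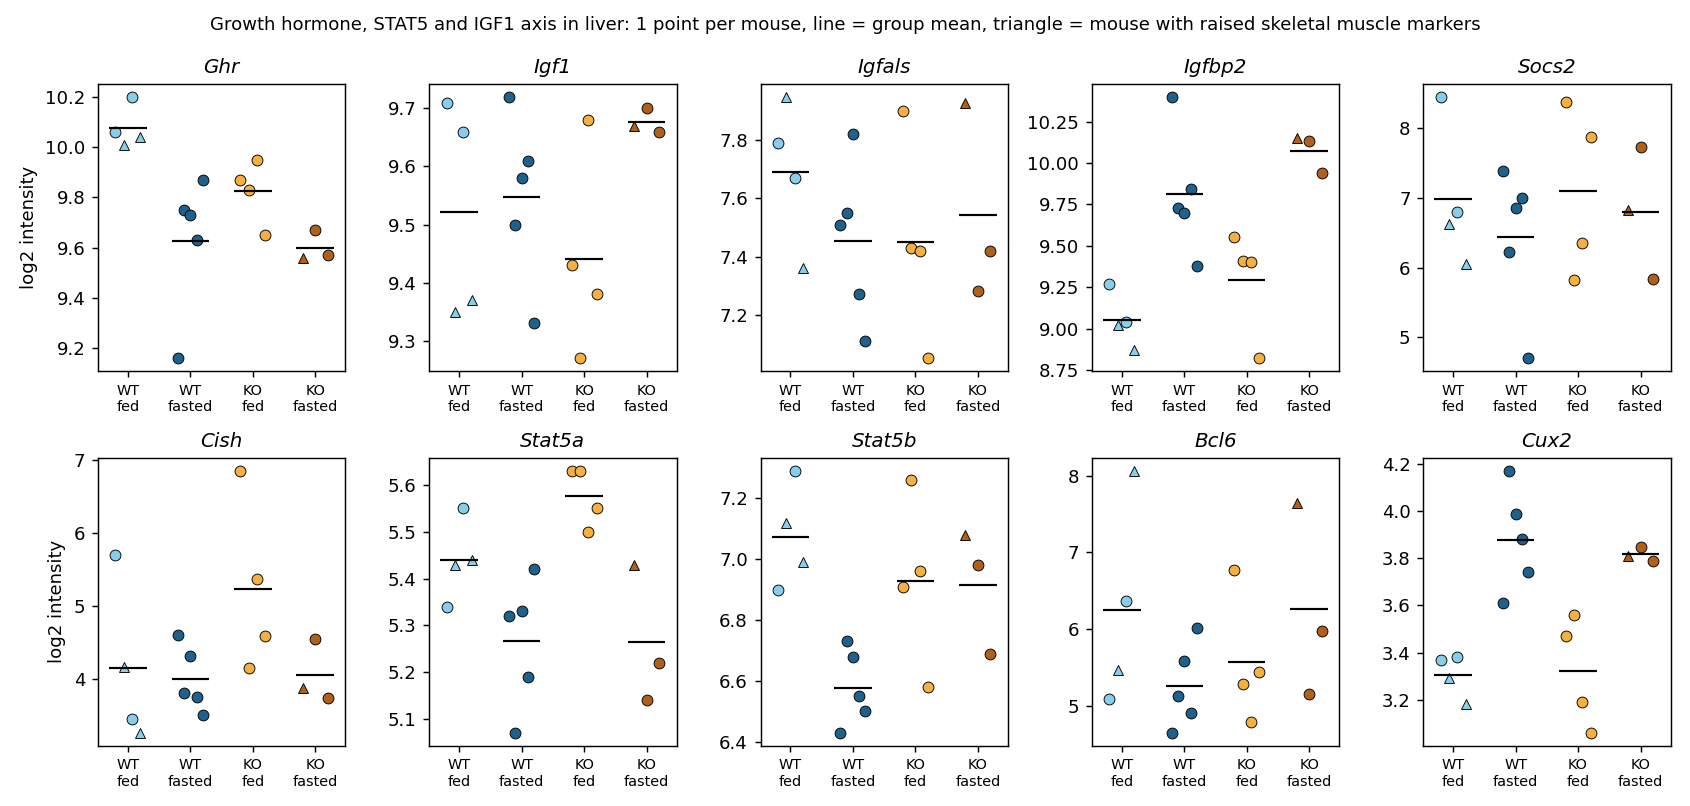
Log2 intensity (vertical axes, a separate range for each gene) of the 10 genes in the 4 groups, with 1 point per mouse, a line at the group mean and triangles for the 3 mice with raised skeletal muscle markers. Ghr, Stat5b, Cux2 and Igfbp2 separate fed from fasted wild-type mice, while Socs2, Cish and Bcl6 spread over more than 3 log2 units.

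Ghr, the growth hormone receptor, was highest in wild-type fed mice. Its log2 intensity was 10.06, 10.01, 10.20 and 10.04 in fed and 9.16, 9.75, 9.73, 9.63 and 9.87 in fasted wild-type mice. Knockouts had 9.87, 9.83, 9.95 and 9.65 fed and 9.56, 9.67 and 9.57 fasted. Every wild-type fed mouse lay above every mouse of the other 3 groups, and wild-type fasted mouse 1 was the lowest of all. Fasting lowered Ghr in wild-type mice by a log2 difference of -0.45 ± 0.11 (SE), which is 1.36-fold, with an adjusted p of 0.0186. The call was lost without wild-type fed mouse 3 (-0.41, adjusted p = 0.0718).

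In knockout mice the Ghr difference on fasting was -0.22 (95% interval -0.50 to 0.05) and did not pass. The fasting changes of the genotypes differed by 0.22 (95% interval -0.14 to 0.59, adjusted p = 0.593), so no difference between them was shown. Knockout fed mice were below wild-type fed mice by a log2 difference of -0.25 (95% interval -0.51 to 0.00), and although the ranges did not overlap, this did not pass either (adjusted p = 0.385). Averaged over the genotypes Ghr fell by 0.34 ± 0.09 on the log2 scale (adjusted p = 0.0166), a call lost without the 3 mice with muscle markers (-0.35, adjusted p = 0.0797).

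Stat5b, the STAT5 form that dominates in liver, had its lowest mean in wild-type fasted mice. Its values were 6.90, 7.12, 7.29 and 6.99 in fed and 6.43, 6.73, 6.68, 6.55 and 6.50 in fasted wild-type mice, with no overlap. In knockout mice they were 6.91, 7.26, 6.96 and 6.58 fed and 7.08, 6.98 and 6.69 fasted, which overlap throughout. The wild-type difference was -0.49 ± 0.12 (SE), 1.41-fold lower, with an adjusted p of 0.0157. It did not pass after quantile normalization (-0.43, adjusted p = 0.0565) or without wild-type fed mouse 3 (-0.42, adjusted p = 0.0701).

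The knockout difference of Stat5b was -0.01 (95% interval -0.30 to 0.28). Averaged over the genotypes Stat5b differed by -0.25 ± 0.09 (SE) and did not pass (adjusted p = 0.103 in limma). The genotypes' fasting changes differed by 0.49 (95% interval 0.09 to 0.88, unadjusted p = 0.0181), and this did not pass after adjustment over all genes (adjusted p = 0.318). In fasted mice Stat5b was 0.34 higher in knockouts (95% interval 0.06 to 0.62), again without passing (adjusted p = 0.38).

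Stat5a, its neighbour on chromosome 11, varied less between mice of a group. Its fasting difference was smaller than that of Stat5b in wild-type mice and larger in knockout mice. Fed values were 5.34, 5.43, 5.55 and 5.44 in wild-type and 5.63, 5.63, 5.50 and 5.55 in knockout mice. Fasted values were 5.32, 5.07, 5.33, 5.19 and 5.42 in wild-type and 5.43, 5.14 and 5.22 in knockout mice. Every fasted knockout mouse was below every fed one, while the wild-type ranges overlapped. Neither genotype passed alone (-0.17, adjusted p = 0.214 in wild-type, and -0.31, adjusted p = 0.0722 in knockout mice). Their mean passed, at -0.24 ± 0.06 (SE) or 1.18-fold lower, with an adjusted p of 0.0147. That call was lost after quantile normalization (-0.21, adjusted p = 0.0755), on leaving out mouse 2 of the knockout fasted group (-0.21, adjusted p = 0.055), and on leaving out mice 1 and 4 of the knockout fed group (-0.24, adjusted p = 0.058).

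Socs2 and Cish encode SOCS-family proteins, which STAT5 induces and which inhibit signalling from the receptor. Both varied far more between mice of a group than most genes did. The pooled within-group SD of Socs2 was 1.07, larger than that of 99.8% of all genes, and that of Cish was 0.87, larger than that of 99.6%. The median over all genes was 0.15, and Stat5a, at 0.11, exceeded 23.2% of them.

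Socs2 was 8.45, 6.63, 6.80 and 6.05 in fed and 7.39, 6.23, 6.85, 7.00 and 4.70 in fasted wild-type mice. In knockout mice it was 8.38, 5.82, 6.35 and 7.87 fed and 6.83, 7.73 and 5.84 fasted. The 4 groups overlapped, and the highest mouse, wild-type fed mouse 1, was 13.4-fold above the lowest, wild-type fasted mouse 5. That lowest mouse is the one with the pancreas markers, and their part in its value was not tested. Fasting differences of -0.55 in wild-type mice (95% interval -1.85 to 0.75) and -0.30 in knockout mice (95% interval -1.79 to 1.18) did not pass. The first was -0.11 without wild-type fasted mouse 5 and -0.06 without wild-type fed mouse 1. The second probe set of Socs2, which read lower, gave the groups in the same order, with its highest value, 5.34, in the same wild-type fed mouse 1.

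Cish was 5.70, 4.17, 3.46 and 3.27 in fed and 4.61, 3.82, 4.32, 3.76 and 3.51 in fasted wild-type mice. Knockouts had 6.85, 4.16, 5.37 and 4.59 fed and 3.88, 4.55 and 3.74 fasted. Knockout fed mice had the highest mean, 5.24 ± 1.18 (SD, n = 4), but each group overlapped the next in order of level. Cish was 1.09 higher in knockout than in wild-type fed mice (95% interval -0.02 to 2.20, adjusted p = 0.389). On fasting it differed by -1.19 in knockouts (95% interval -2.38 to 0.01, adjusted p = 0.333) and by -0.14 in wild-type mice (95% interval -1.19 to 0.91).

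Knockout fed mouse 1, with the highest Cish and the second acute phase score, also had the highest Socs3, at 7.85 against 5.91 or lower in the other mice. Knockout fed mouse 4, with the highest acute phase score (1.72), had a Cish of 4.59. Wild-type fed mouse 1, with a score of -0.09, had a Cish of 5.70. Socs3, which cytokine signalling induces, is named here after its values were seen. Without knockout fed mice 1 and 4, the Cish difference between fed genotypes was 0.61 and that of Socs2 changed from 0.12 to -0.90, neither passing. The part of the acute phase response in these values was not tested.

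Within the groups, Socs2 and Cish rose and fell together. Over the 16 mice, the deviations from the group means had a Pearson correlation of 0.74 (permutation p = 0.00411, adjusted p = 0.0123 over 3 pairs) and a Spearman correlation of 0.71 (permutation p = 0.00966, adjusted p = 0.029). Leaving out wild-type fasted mouse 5 and wild-type fed mouse 1, the farthest from the median of Socs2, gave 0.70. Socs2 with Bcl6 (-0.27) and Cish with Bcl6 (-0.24) did not pass (adjusted permutation p = 0.474 for each). These 3 pairs were chosen after the members' spread had been seen.

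**Figure D2:**
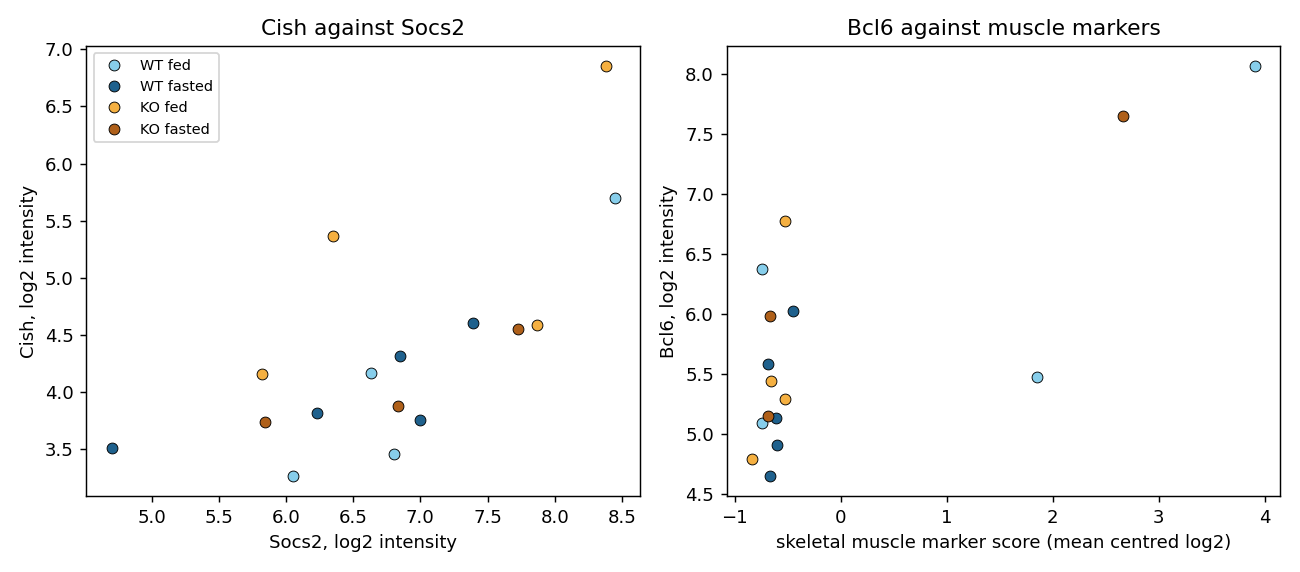
Each point is 1 mouse, coloured by group, with log2 intensity of Cish against Socs2 on the left and of Bcl6 against the skeletal muscle marker score (mean centred log2 value) on the right. Mice high in Socs2 tended to be high in Cish, and the highest Bcl6 values, 8.06 and 7.65, belong to the mice with marker scores of 3.91 and 2.66.

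Bcl6, a repressor whose binding sites overlap those of STAT5, had a pooled within-group SD of 0.99, larger than that of 99.7% of all genes. It was 5.09, 5.47, 6.37 and 8.06 in fed and 4.65, 5.13, 5.58, 4.91 and 6.02 in fasted wild-type mice. In knockout mice it was 6.77, 5.29, 4.79 and 5.44 fed and 7.65, 5.15 and 5.98 fasted. The 2 highest mice, wild-type fed mouse 4 and knockout fasted mouse 1, had the 2 highest muscle marker scores. Wild-type fed mouse 2, with the third highest score, had a Bcl6 of 5.47, inside the range of the other mice. Bcl6 is also expressed in muscle, and the part of muscle RNA in its values was not tested.

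The fasting difference of Bcl6 was -0.99 in wild-type mice (95% interval -2.20 to 0.21, adjusted p = 0.317) and 0.69 in knockout mice (95% interval -0.68 to 2.06, adjusted p = 0.697). The difference between them, 1.68 (95% interval -0.14 to 3.51), did not pass (adjusted p = 0.439). Without the 3 mice with muscle markers these became -0.47, -0.00 and 0.47. The direction of any change of Bcl6 was therefore not resolved by these arrays.

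Cux2 is a homeobox repressor that in adult liver is normally abundant in females and low in males, and these mice were males. Its values were 3.37, 3.29, 3.38 and 3.18 in fed and 3.61, 4.17, 3.99, 3.88 and 3.74 in fasted wild-type mice. In knockout mice they were 3.47, 3.56, 3.19 and 3.06 fed and 3.81, 3.85 and 3.79 fasted. All 8 fasted mice lay above all 8 fed mice, the only member for which this held across both genotypes. The rise was 0.57 ± 0.11 (SE) in wild-type mice, 1.49-fold (adjusted p = 0.00359), and 0.50 ± 0.13 (SE) in knockout mice, 1.41-fold (adjusted p = 0.0414).

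The knockout call of Cux2 was lost under 13 of 26 alternatives, with values between 0.41 and 0.58 throughout. Averaged over the genotypes the rise was 0.53 ± 0.09 (SE) with an adjusted p of 0.000467, and between 0.49 and 0.58 under the 25 alternatives. The genotypes' rises differed by -0.08 (95% interval -0.44 to 0.29). The whole range of Cux2 over the 16 mice was 2.16-fold, and its level was low. On the linear scale it ran from 8.31 in knockout fed mouse 4 to 18 in wild-type fasted mouse 2. The array medians over all probe sets were 8.08 to 8.61, so the fed values in particular lay close to them.

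Igf1, the growth factor that liver releases under growth hormone, had a pooled within-group SD of 0.15, larger than that of 53.5% of all genes. It was 9.71, 9.35, 9.66 and 9.37 in fed and 9.72, 9.50, 9.58, 9.61 and 9.33 in fasted wild-type mice. Knockouts had 9.43, 9.27, 9.68 and 9.38 fed and 9.67, 9.70 and 9.66 fasted. The highest of the 16 mice was 1.37-fold above the lowest, the smallest span of the 10 members, and the groups overlapped. The fasting difference was 0.02 in wild-type mice, and its 95% interval of -0.19 to 0.24 corresponds to a fold of 0.877 to 1.18. In knockout mice it was 0.24 (95% interval -0.01 to 0.48, adjusted p = 0.342).

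Igfals encodes the acid-labile subunit, which holds IGF1 in a long-lived complex in blood. It was 7.79, 7.95, 7.67 and 7.36 in fed and 7.51, 7.55, 7.82, 7.27 and 7.11 in fasted wild-type mice. Knockouts had 7.90, 7.43, 7.42 and 7.05 fed and 7.93, 7.28 and 7.42 fasted. All groups overlapped, and the fasting differences of -0.24 (95% interval -0.62 to 0.14) and 0.09 (95% interval -0.33 to 0.52) did not pass. Igfals lies on chromosome 17, as Ppard does, with 94 tested genes between them in the gene order of GRCm38.p6. Of these, 1 (1.06%) differed in the mean knockout comparison, and Igfals was not among the genes called.

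Igfbp2, an IGF-binding protein secreted by hepatocytes, rose on fasting in both genotypes. It was 9.27, 9.02, 9.04 and 8.87 in fed and 10.40, 9.73, 9.70, 9.84 and 9.38 in fasted wild-type mice. In knockout mice it was 9.55, 9.41, 9.40 and 8.82 fed and 10.15, 10.13 and 9.94 fasted. Fed and fasted mice did not overlap within either genotype. The rise was 0.76 ± 0.17 (SE) or 1.69-fold in wild-type mice (adjusted p = 0.00877) and 0.78 ± 0.19 (SE) or 1.72-fold in knockout mice (adjusted p = 0.0309). The genotypes' rises differed by 0.03 (95% interval -0.52 to 0.57).

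The knockout call of Igfbp2 was lost when any 1 of the 3 knockout fasted mice was left out (0.75, 0.76 and 0.85, adjusted p = 0.111, 0.12 and 0.0711), and without knockout fed mouse 4 (0.63, adjusted p = 0.0879). Averaged over the genotypes the rise was 0.77 ± 0.13 (SE) with an adjusted p of 0.000651, and it stayed between 0.69 and 0.83 under the 25 alternatives.

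**Figure D3:**
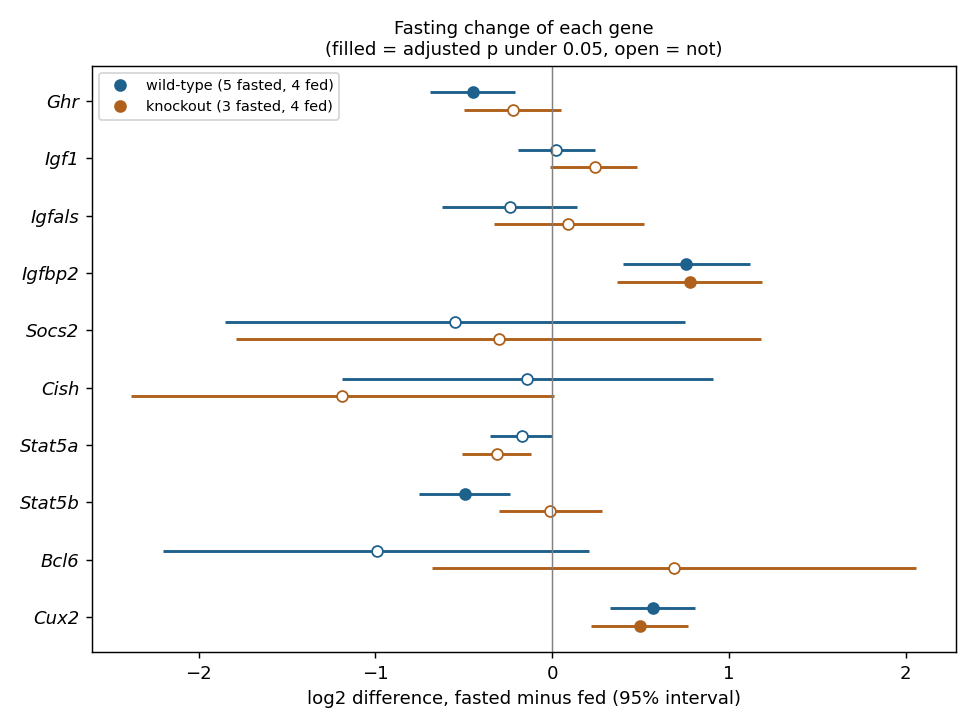
Log2 difference, fasted minus fed (horizontal axis), of each of the 10 genes in wild-type (blue) and knockout (brown) mice with its 95% interval from limma, filled where the adjusted p was under 0.05. Cux2 and Igfbp2 lie to the right in both genotypes, Ghr and Stat5b lie to the left with a filled point in wild-type mice, and the intervals of Socs2, Cish and Bcl6 are the widest.

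Loss of PPARβ/δ left no member past the threshold. The counts were 0 of 10 in fed mice, where 0.677% of all genes passed, 0 of 10 in fasted mice, where 0.537% passed, and 0 of 10 for the mean of both feeding states, where 1.55% passed. The lowest adjusted p in limma was 0.385, 0.38 and 0.508, and 0, 1 and 0 members had an unadjusted p under 0.05. Among all 19935 genes 2631, 2065 and 2150 had an unadjusted p under 0.05. The fasting change differed between the genotypes for 0 of 10 members, against 0.0100% of all genes (2 genes), with a lowest adjusted p of 0.318 and 1 member, Stat5b, at an unadjusted p under 0.05. At that unadjusted cutoff were 2441 of all 19935 genes. The widest of the 95% intervals reached 1.37 log2 units to either side of its value in fed and 1.42 in fasted mice, so for the variable members these comparisons are imprecise. Of 8 Kupffer cell and macrophage markers, all measured, the score was 0.28 to 0.43 in knockout fed and -0.25 to -0.08 in wild-type fed mice, and its part in the fed comparison was not tested. For Igf1 the interval of the mean knockout difference was -0.14 to 0.19, and for Cux2 it was -0.21 to 0.16.

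For the 3 members with the largest spread over the mice, the genes of most similar profile were those with the smallest root mean square difference of centred log2 values over the 16 mice, among 11951 candidates. Cish was nearest to Foxq1 (0.40), Phlda1 (0.48) and Gbp11 (0.52), all 3 highest in knockout fed mouse 1 as Cish was. Bcl6 was nearest to Gsn (0.55), Ankrd23 (0.60) and Mylpf (0.61), all highest in wild-type fed mouse 4. Mylpf encodes a light chain of skeletal muscle myosin. For Socs2 the nearest genes, Foxa2, Eid3 and Nop58 (0.70 each), were not close, since Socs2 itself had a root mean square of 0.97.

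Other genes of the pathway were read from gene lists. On fasting, 9.22% of all genes passed in wild-type and 3.67% in knockout mice. Without the 3 mice with muscle markers these shares were 4.81% and 1.72%. Of 26 measured genes of growth hormone receptor signalling, 7 fell and 1 rose on fasting in wild-type mice, with a median of -0.11 against 0.02 over all genes. The falls included Lifr, a cytokine receptor subunit (-1.16 ± 0.15 SE), the growth factor receptor Egfr (-0.89 ± 0.19 SE), the adaptor Grb10 (-0.45 ± 0.11 SE) and Socs4 (-0.45 ± 0.14 SE), and Socs1 rose by 0.24 ± 0.07 SE. The Socs4 call was lost under 19 and the Socs1 call under 14 of 26 alternatives. Jak2, the receptor's kinase, was among the 7 at -0.38 ± 0.10 SE (adjusted p = 0.0213), and is named after its value was seen. Without the 3 mice with muscle markers, 3 fell (Lifr, Egfr and Grb10) and 0 rose. In knockout mice 0 of the 26 passed (5 at an unadjusted p under 0.05), with a median of -0.12 against -0.02. The difference between the genotypes passed for 0 of them (5 at an unadjusted p under 0.05). Among all 19935 genes 3045 were at that unadjusted cutoff in knockout mice and 2441 for the difference between the genotypes.

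Of 15 measured genes of the IGF system, 1 passed in wild-type mice, where 9.22% of all genes did. This was the binding protein Igfbp4, which rose by 0.38 ± 0.11 SE (adjusted p = 0.035 in limma). In knockout mice 0 passed (2 at an unadjusted p under 0.05), where 3.67% of all genes did. At that unadjusted cutoff were 3045 of all 19935 genes. The list's median was 0.05 in wild-type and 0.06 in knockout mice, against 0.02 and -0.02 over all genes. The Igfbp4 call was lost under 10 of 26 alternatives, among them without the 3 mice with muscle markers. Igfbp1, another hepatic binding protein, named after its values were seen, had a fasting difference of -0.02 ± 0.20 SE in wild-type and 0.10 ± 0.23 SE in knockout mice. Among 8 metabolic regulators of the fasted liver, 3 rose in wild-type mice, where 9.22% of all genes passed. They were the hormone Fgf21 (1.56 ± 0.29 SE), Ppara (1.00 ± 0.17 SE) and Foxo1 (0.51 ± 0.13 SE). The median of the 8 was 0.52 in wild-type and 0.66 in knockout mice, against 0.02 and -0.02 over all genes. In knockout mice 2 of the 8 rose, the leptin receptor Lepr (1.08 ± 0.29 SE) and Ppara (0.90 ± 0.20 SE), where 3.67% of all genes passed. The knockout call was lost under 16 of 26 alternatives for Lepr and under 5 for Ppara. Without the 3 mice with muscle markers 1 rose in each genotype, Ppara in wild-type and Lepr in knockout mice (4.81% and 1.72% of all genes passed). Without knockout fed mice 1 and 4, 0 rose in knockout mice, where 1.09% of all genes passed.

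Of 15 measured liver transcription factors of the network, 4 rose and 1 fell in wild-type mice, where 9.22% of all genes passed. In knockout mice 1 rose and 1 fell, where 3.67% of all genes passed. The list's median was -0.16 in wild-type and -0.10 in knockout mice, against 0.02 and -0.02 over all genes. In wild-type mice Trim24 (1.36 ± 0.15 SE), Cebpb (0.99 ± 0.18 SE), Tox (0.76 ± 0.10 SE) and Hnf4a (0.56 ± 0.13 SE) rose. Zbtb20 fell there by 0.55 ± 0.13 SE on the log2 scale. Without the 3 mice with muscle markers, Tox and Trim24 rose and 0 fell in wild-type mice, where 4.81% of all genes passed. In knockout mice Trim24 rose by 0.98 ± 0.17 SE, and Onecut1, which encodes HNF6, fell by 2.09 ± 0.55 SE on the log2 scale (adjusted p = 0.0436). The knockout call of Onecut1 was lost under 14 of 26 alternatives, with values between -2.42 and -1.61. It was lost on leaving out mice 1 and 4 of the knockout fed group (-1.61, adjusted p = 0.329), mouse 1 of them alone (-1.84, adjusted p = 0.12) or the mice with muscle markers (-1.91, adjusted p = 0.129). Leaving out any 1 knockout fasted mouse also lost it (adjusted p from 0.114 to 0.159), as did the fit with an intensity trend and robust variance (-2.09, adjusted p = 0.109) and centring on the common median (-2.05, adjusted p = 0.0591). Averaged over the genotypes Onecut1 differed by -1.71 ± 0.37 SE (adjusted p = 0.00479) and passed under all 25 alternatives. Its level spanned 11.8-fold over the 16 mice and, like that of Socs2, was highest in wild-type fed mouse 1.

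Sex-biased genes downstream of growth hormone moved unevenly. Of 16 measured male-biased genes, 8 fell and 1 rose on fasting in wild-type mice, where 9.22% of all genes passed. The list's median was -0.67 against 0.02 over all genes. The steroid dehydrogenase Hsd3b5 (-3.70 ± 0.25 SE), the fatty acid elongase Elovl3 (-1.36 ± 0.21 SE), Cyp2u1 (-1.26 ± 0.17 SE) and Cyp7b1 (-0.92 ± 0.24 SE) led the falls, and Cyp2d9 rose by 0.24 ± 0.07 SE. Without the 3 mice with muscle markers 5 fell and 1 rose (4.81% of all genes passed). Without knockout fed mice 1 and 4, 9 fell and 0 rose (9.76% of all genes passed). The wild-type call of Cyp2d9 was lost under 21 of 26 alternatives. In knockout mice 0 fell and 1 rose, again Cyp2d9 (0.45 ± 0.08 SE), and 4 had an unadjusted p under 0.05. Among all genes 3.67% passed there, and 3045 of 19935 had an unadjusted p under 0.05. The list's median was -0.07 against -0.02. Without knockout fed mice 1 and 4, 0 of its genes passed in knockout mice, against 1.09% of all genes. The genotypes' fasting changes differed for 1 of the 16, Hsd3b5 (7 at an unadjusted p under 0.05). Among all genes 2 (0.0100%) passed there, and 2441 of 19935 had an unadjusted p under 0.05. Hsd3b5 did not pass on fasting in knockout mice, although every knockout fasted mouse lay below every knockout fed mouse. Its knockout difference was between -1.24 and -0.85 under 26 alternatives and passed under 5 of them.

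Of 15 measured female-biased genes, 3 rose and 0 fell in wild-type mice, where 9.22% of all genes passed. They were Cyp17a1 (2.79 ± 0.61 SE), Nipal1 (1.95 ± 0.29 SE) and Fmo2 (1.52 ± 0.28 SE), while the list's median was 0.03. In knockout mice Fmo2 (2.20 ± 0.32 SE) and Nipal1 (1.66 ± 0.33 SE) rose, where 3.67% of all genes passed. Fmo2 alone passed there without the 3 mice with muscle markers and without knockout fed mice 1 and 4. The other 12 genes of the list did not pass in either genotype.

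Some of these genes differed with genotype. Among all genes 0.677% passed in fed mice, 0.537% in fasted mice and 1.55% in the mean of both feeding states. Of the 26 growth hormone receptor signalling genes 1 passed in each of these comparisons, and of the 16 male-biased genes 1, 2 and 2. The lists of the IGF system, transcription factors, metabolic regulators and female-biased genes had 0 in each. Sirpa, a membrane protein that growth hormone signalling phosphorylates and that macrophages also express, was higher in knockout fed mice (0.63 ± 0.11 SE, adjusted p = 0.00947) and in the mean of both feeding states (0.57 ± 0.08 SE, adjusted p = 0.00105). The fed call was lost under 2 of 26 alternatives, with the fed groups fitted alone and without the 3 mice with muscle markers (0.47, adjusted p = 0.143), and the mean call was kept under all 25 alternatives. The 8 Kupffer cell and macrophage markers moved in the same comparisons. Their median was 0.53 in fed mice, with 2 called (Cd5l and Clec4f), and 0.42 in the mean of both feeding states, with 4 called (those and Csf1r and Vsig4). In each comparison 7 of the 8 had an unadjusted p under 0.05, as did 2631 (fed) and 2150 (mean) of all 19935 genes. The part of these markers in the Sirpa values was not tested.

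Lifr (0.77 ± 0.16 SE), Hsd3b5 (2.74 ± 0.27 SE) and Slco1a1 (0.68 ± 0.14 SE) were higher in fasted knockout than in fasted wild-type mice. Hsd3b5 passed under all 26 alternatives. The Lifr call was lost under 14 of them, among them on leaving out mice 1 and 4 of the knockout fed group (0.77, adjusted p = 0.0542) or the 3 mice with muscle markers (0.73, adjusted p = 0.13). The Slco1a1 call was lost under 10, among them without those 3 mice (0.69, adjusted p = 0.118). Mup21, a male-biased urinary protein gene, was lower in knockout fed mice (-1.46 ± 0.30 SE). Its call was also lost under 10 of the 26, among them without the 3 mice with muscle markers (-1.38, adjusted p = 0.206). Selenbp2 was higher in the mean of both feeding states (1.33 ± 0.23 SE) and passed under all 25 alternatives.

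**Figure D4:**
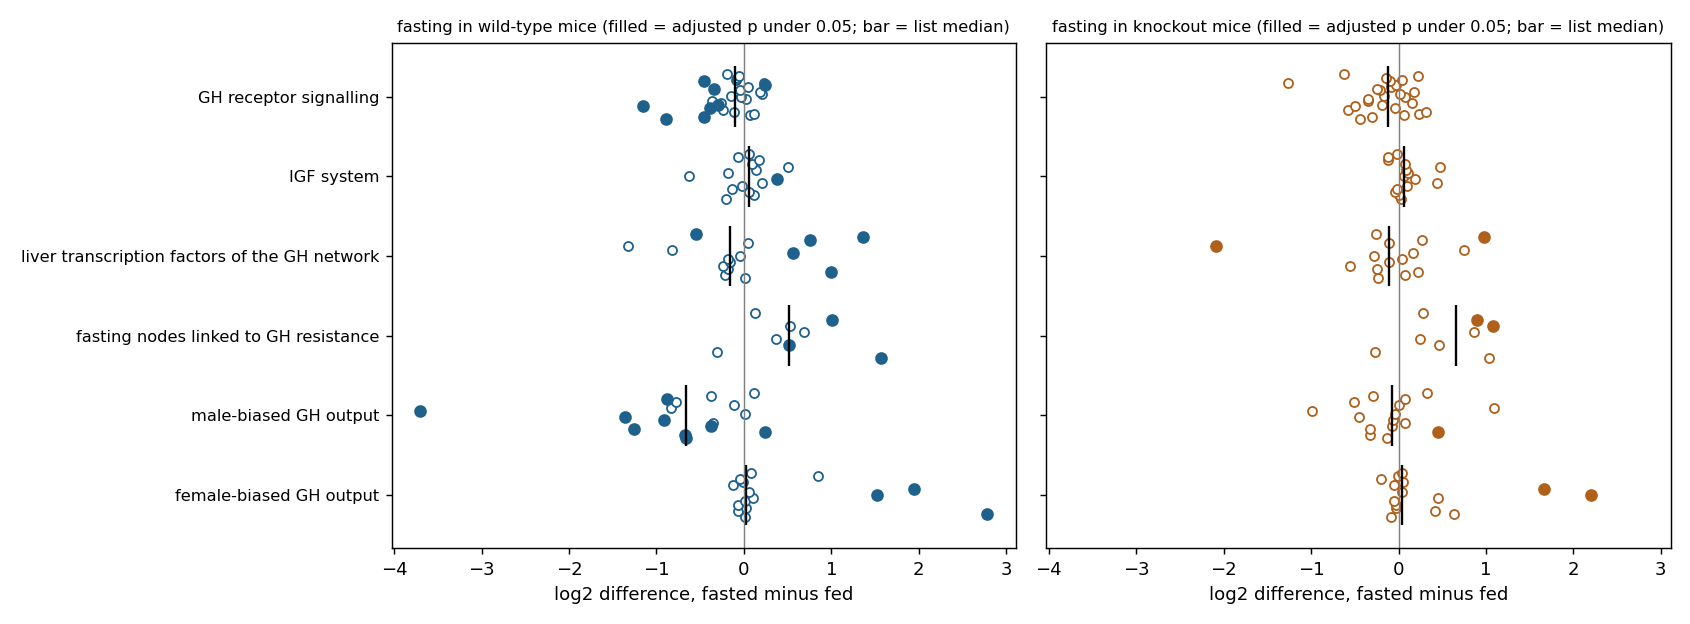
Log2 difference, fasted minus fed (horizontal axis), of the genes of 6 lists in wild-type (left) and knockout (right) mice, 1 point per gene, filled where the adjusted p was under 0.05, with a bar at each list's median. The male-biased list has its median at -0.67 in wild-type and -0.07 in knockout mice, and Hsd3b5 is the point at -3.70.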

How the data were processed

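The authors deposited normalised probe set intensities, made with RMA per the submitters' processing notes, for 16 liver arrays of 4 groups (4, 5, 4 and 3 mice). No genome build for the array was found in the labels. The intensities were on a linear scale, and log2 was taken here. Of 35519 probe sets, 21780 had 1 symbol, 1605 several and 12134 none; the probe set with the highest mean stood for each of 998 genes with more than 1, leaving 19935 genes. All arrays entered 1 limma fit (limma 3.58.1, R 4.3.3, lmFit and eBayes) with a mean for each of the 4 groups (12 residual degrees of freedom, 4.55 prior). The same fit was also run on simulated data with the spread of these arrays. Contrasts were two-sided, with Benjamini-Hochberg adjustment over all genes and a threshold of 0.05. Correlations used 100000 permutations (scipy 1.17.1).

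The members, lists and naming rule were chosen with earlier results of these data known; the muscle marker list and the alternative without 3 mice were chosen after seeing the data. The rule named the 10 members, Ppard, up to 4 risers and 4 fallers among the called genes of each list and contrast, and the 3 nearest genes of the 3 most variable members. The acute phase list had, on fasting, 2 risers and 2 fallers of 23 measured genes in wild-type and 2 fallers in knockout mice. Among all genes 9.22% and 3.67% passed. Scores of the other cell types' markers spanned at most -0.48 to 0.43, and some separated groups. Kupffer cell and macrophage scores were 0.28 to 0.43 in knockout fed and -0.08 to 0.22 in knockout fasted mice. Sinusoidal endothelium scores were 0.09 to 0.16 in knockout fasted and -0.30 to -0.02 in wild-type fasted mice. Stellate cell and fibroblast scores were 0.02 to 0.13 and -0.28 to 0.00 in these groups. The part of these cells in the members' values was not tested. The number of arrays limits the precision.

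Alternatives were quantile normalization, median centring of arrays, a filter on dim genes (mean under log2 2.79), a fit of all probe sets, a median over each gene's probe sets, robust eBayes with a trend, the contrast's groups alone, a replicate block, and leaving out arrays. The labels call the replicates biological; the series' design states 4 to 5 mice in each group, while 3 knockout fasted arrays were analysed here.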

Additional observations from a re-analysis of the deposited data

Results flagged for a closer look

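The fasting change of Hsd3b5, a male-biased steroid dehydrogenase downstream of growth hormone, differed between the genotypes by 2.72 ± 0.38 (SE) on the log2 scale (adjusted p = 0.0284 in limma), which is the reason it is listed here. It was 8.50, 8.30, 8.33 and 8.24 in fed and 5.48, 4.47, 4.76, 4.73 and 3.76 in fasted wild-type mice, against 8.27, 8.42, 8.74 and 8.03 in knockout fed and 7.89, 7.14 and 7.10 in knockout fasted mice. The difference stayed between 2.43 and 2.93 under 25 alternatives and passed the threshold under 13 of them, with adjusted p from 0.0019 to 0.167. It did not pass without knockout fed mice 1 and 4 (2.50, adjusted p = 0.167) or without the 3 mice with muscle markers (2.53, adjusted p = 0.145). Among the members, 0 of 30 groups of 4 or 5 mice held a mouse far enough from the rest to be listed, where chance gives about 1 in 20.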

How the results depend on the processing

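Across 26 alternatives, 16 of which leave out 1 array, none of the 10 member values that passed changed sign, and Cux2 and Igfbp2 averaged over the genotypes passed under each alternative that gives them. Of the 60 values that did not pass, 25 changed sign under at least 1 alternative, and 1, the mean fasting change of Stat5b, passed under 2 of them (-0.34, adjusted p = 0.0265 without knockout fed mice 1 and 4, and -0.31, adjusted p = 0.0258 without knockout fed mouse 4). For fasting in wild-type mice the number of members called was 4, fell to 0 without the 3 mice with muscle markers, and ranged from 2 to 4 when 1 array was left out, with 2 when wild-type fed mouse 3 was (6.01% of all genes, against 9.22% with all arrays). For fasting in knockout mice the number was 2, and it was 1 with the 2 groups alone (2.01% of all genes, against 3.67%), 1 with the replicate block (3.74%), 0 without knockout fed mice 1 and 4, 0 without the 3 mice with muscle markers, and 0 to 2 when 1 array was left out. All of these but the replicate block also used fewer arrays. The replicate numbers did not pair the mice: 6 of 21 same-numbered pairs had a correlation over 0.1 (range -0.253 to 0.231), and 4 of 16 arrays matched their own number best. The replicate block changed no other count of members by over 1.5 times. Groups of 3 to 5 mice leave wide intervals for Socs2, Cish and Bcl6.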
